A study of Mus musculus with 13 samples.

Results

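Induced hepatocyte-like cells (iHep) were set against cultured primary hepatocytes, with 4 arrays in each group, chosen by their titles out of the 13 arrays of a mouse study. Each array is a one-colour Agilent microarray hybridised with Cy3-labelled cRNA of 1 sample. The iHep cells were p19Arf-null tail-tip fibroblasts on a C57BL/6-129 background that had been infected with lentiviruses for 3 liver-enriched transcription factors, were grown in modified Block's medium and were sampled on day 21 after induction. Each iHep array holds 1 colony, and the labels describe the colonies as uniformly epithelial. Whether each colony is a separate clone was not tested. The labels do not name the factors. The hepatocytes were isolated from p19Arf-null mice of the same background, received no virus, were grown in the same medium, were sampled on day 21 after isolation and are described as proliferating. Day, medium, strain and the deleted gene were thus shared by the groups, whereas the cell of origin, the virus and the picking of colonies were not. Sex was not shared throughout. The sex-linked genes described below showed a female pattern on iHep replicates 3 and 4 and a male pattern on the other iHep and all hepatocyte arrays. Untransduced p19Arf-null tail-tip fibroblasts (TTF, 3 arrays, day 42, in DMEM with serum) are given beside them as the type of cell the colonies were made from. The labels do not say how many animals or isolations the arrays come from, so the p-values reflect only how far these arrays scatter, and part of that scatter may be technical.

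Hepatocytes make most plasma proteins and carry out bile acid synthesis, detoxification, urea production and the storage and release of glucose, under a network of transcription factors that includes the FOXA family and several nuclear receptors. Fibroblasts keep a record of their body position in their Hox genes, which are arranged in 4 clusters and whose posterior members mark the hind trunk, limbs and tail. A liver cell suspension can also hold Kupffer cells, which are the resident macrophages of the liver, sinusoidal endothelial cells and vitamin A-storing stellate cells.

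Levels below are log2 intensities relative to the 75th percentile of the array, averaged over the probes of a gene, and they compare arrays for 1 gene, not genes with each other. Differences are log2 values, iHep minus hepatocyte, with the standard error (SE) of a limma fit over 4 iHep, 4 hepatocyte and 3 TTF arrays. Calling a gene required a Benjamini-Hochberg adjusted p below 0.05 together with a 2-fold or greater difference. The limit of measurement on an array was 3 times its local floor, and where no array of the dimmer group passed it the change is given as a lower bound (at least N-fold). Where it changed a call or moved a value by over 1.5 times, the difference is also given with a common floor, for which values under the highest limit of any array were raised to it. Since that floor lies above the one used for the bounds, it gave smaller differences than the bounds. The number of arrays limits the precision. The 75th percentile was 1850 to 1920 intensity units for iHep and 1140 to 2260 for hepatocytes. The share of features above the limit was lowest on iHep replicate 2, at 63.2%, and 72.1% to 83.0% on the other 7 arrays. Cdkn2a, the gene that encodes p19Arf and also p16Ink4a, lay at 0.71, -0.30, -0.48 and -1.16 on the iHep arrays, against -3.69, -3.06, -1.35 and -0.78 on the hepatocyte arrays, and was not called (1.91 ± 0.63, adjusted p = 0.066, but 2.39 and 0.029 without hepatocyte replicate 4). The position of its probes in the gene was not examined, and the levels therefore do not check the genotype. Of the hepatocyte markers, Alb, Ttr, Trf, Apoa1, Apob, Fgb, Hnf4a, Cyp3a11, Tat for tyrosine aminotransferase (0.62 ± 0.43) and Asgr1 for the asialoglycoprotein receptor (-0.60 ± 0.27) were above the limit on all 8 arrays of the 2 groups.

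The arrays fell into 2 pairs within each group. Rank correlations over all features were 0.950 between iHep replicates 1 and 2 and 0.978 between iHep replicates 3 and 4, against 0.886 to 0.919 across those pairs. Hepatocyte replicates 1 and 2 correlated at 0.980 and replicates 3 and 4 at 0.974, against 0.940 to 0.949 across. Means of the pairs differed by more than 2-fold for 6331 genes (33.2%) in iHep and 4862 genes (25.5%) in hepatocytes. Hepatocyte replicates 3 and 4 correlated with the TTF arrays at 0.906 to 0.918, and replicates 1 and 2 at 0.878 to 0.889. The labels do not say whether the arrays of a pair share a clone or an isolation. The main counts below are therefore also given with the arrays of a pair averaged, an alternative chosen after seeing the data.

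Of 19087 genes tested, 1192 were higher (6.25%) and 1432 lower (7.5%) in iHep than in hepatocytes, 2624 in all (13.7%). With a shift by the array median in place of the 75th percentile, which moved the median difference of all genes from -0.02 to 0.22, these were 1832 higher and 1008 lower. Calls in the higher direction made up 45.4% of all calls in the main scaling and 64.5% with that shift. Without regard to any test, the 4 iHep arrays lay above all 4 hepatocyte arrays for 1850 genes (9.69%) and below them for 2142 (11.2%). With paired arrays averaged, 36 genes were higher (0.189%) and 64 lower (0.335%). Without hepatocyte replicate 1 the numbers were 883 and 984, the fewest lower calls when 1 array was left out, and without iHep replicate 2 they were 1300 and 1596, the most in each direction.

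Of the 15 largest increases, 3 genes (Reg3g, Reg3b and Tm4sf20) are in the intestinal list used below and 2 (Hoxa10 and Hoxa11) in the posterior Hox list. Reg3g, which encodes an antimicrobial lectin released by gut epithelium, lay at 7.88, 6.81, 8.11 and 8.09 on the iHep arrays, against -6.45, -9.37, -8.78 and -6.99 on the hepatocyte arrays. The groups were far apart, only 1 hepatocyte array rose above the limit, and the difference was 15.62 ± 0.67 (adjusted p = 1.1e-06). Next came its relative Reg3b (10.97 ± 1.38), Sptssb for a small subunit of serine palmitoyltransferase (10.83 ± 1.28), the gastric mucosal gene Gkn2 (10.79 ± 2.14) and the mucosal scavenger receptor gene Dmbt1 (10.14 ± 0.79). The list went on with Tm4sf20 (at least 523-fold), the gastric annexin gene Anxa10 (9.91 ± 0.62), Aldh3a1 for an aldehyde dehydrogenase of cornea and stomach (9.91 ± 0.82), Hoxa11, Sprr2d (9.58 ± 1.81), Hoxa10, Chil1 (8.86 ± 1.79), Cltrn (8.69 ± 1.04), Sprr2f (8.47) and B3galt5 (8.43 ± 1.45). Of the 15 largest decreases, 4 genes (C1qc, Lyz2, Lyz1 and Tyrobp) are in the macrophage and leukocyte list and 1 (Emcn) in the endothelial list. Wfdc17 lay at -9.12, -7.50, -7.30 and -8.81 in iHep, against 7.63, 5.93, 4.26 and 4.38 in hepatocytes, with 1 iHep array above the limit, and fell by 13.73 ± 0.89 (adjusted p = 1.8e-05). It was followed by the chemokine gene Ccl6 (-11.46 ± 0.87), Igfbp1, C1qc, the lysozyme genes Lyz2 (-10.03 ± 0.91) and Lyz1 (-9.94 ± 1.17), Clec4d (-9.54 ± 0.80), the cathepsin gene Ctss (-9.54 ± 0.78), Mbl2, Ccl4 (at least 249-fold lower), Tyrobp, the endothelial gene Esm1 (-9.08 ± 0.66), Lum for the matrix proteoglycan lumican (-8.86 ± 0.99), Rgs1 (-8.72 ± 0.72) and Emcn. The lysozyme genes are near-identical copies, so their probes may share signal.

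**Figure D1:**
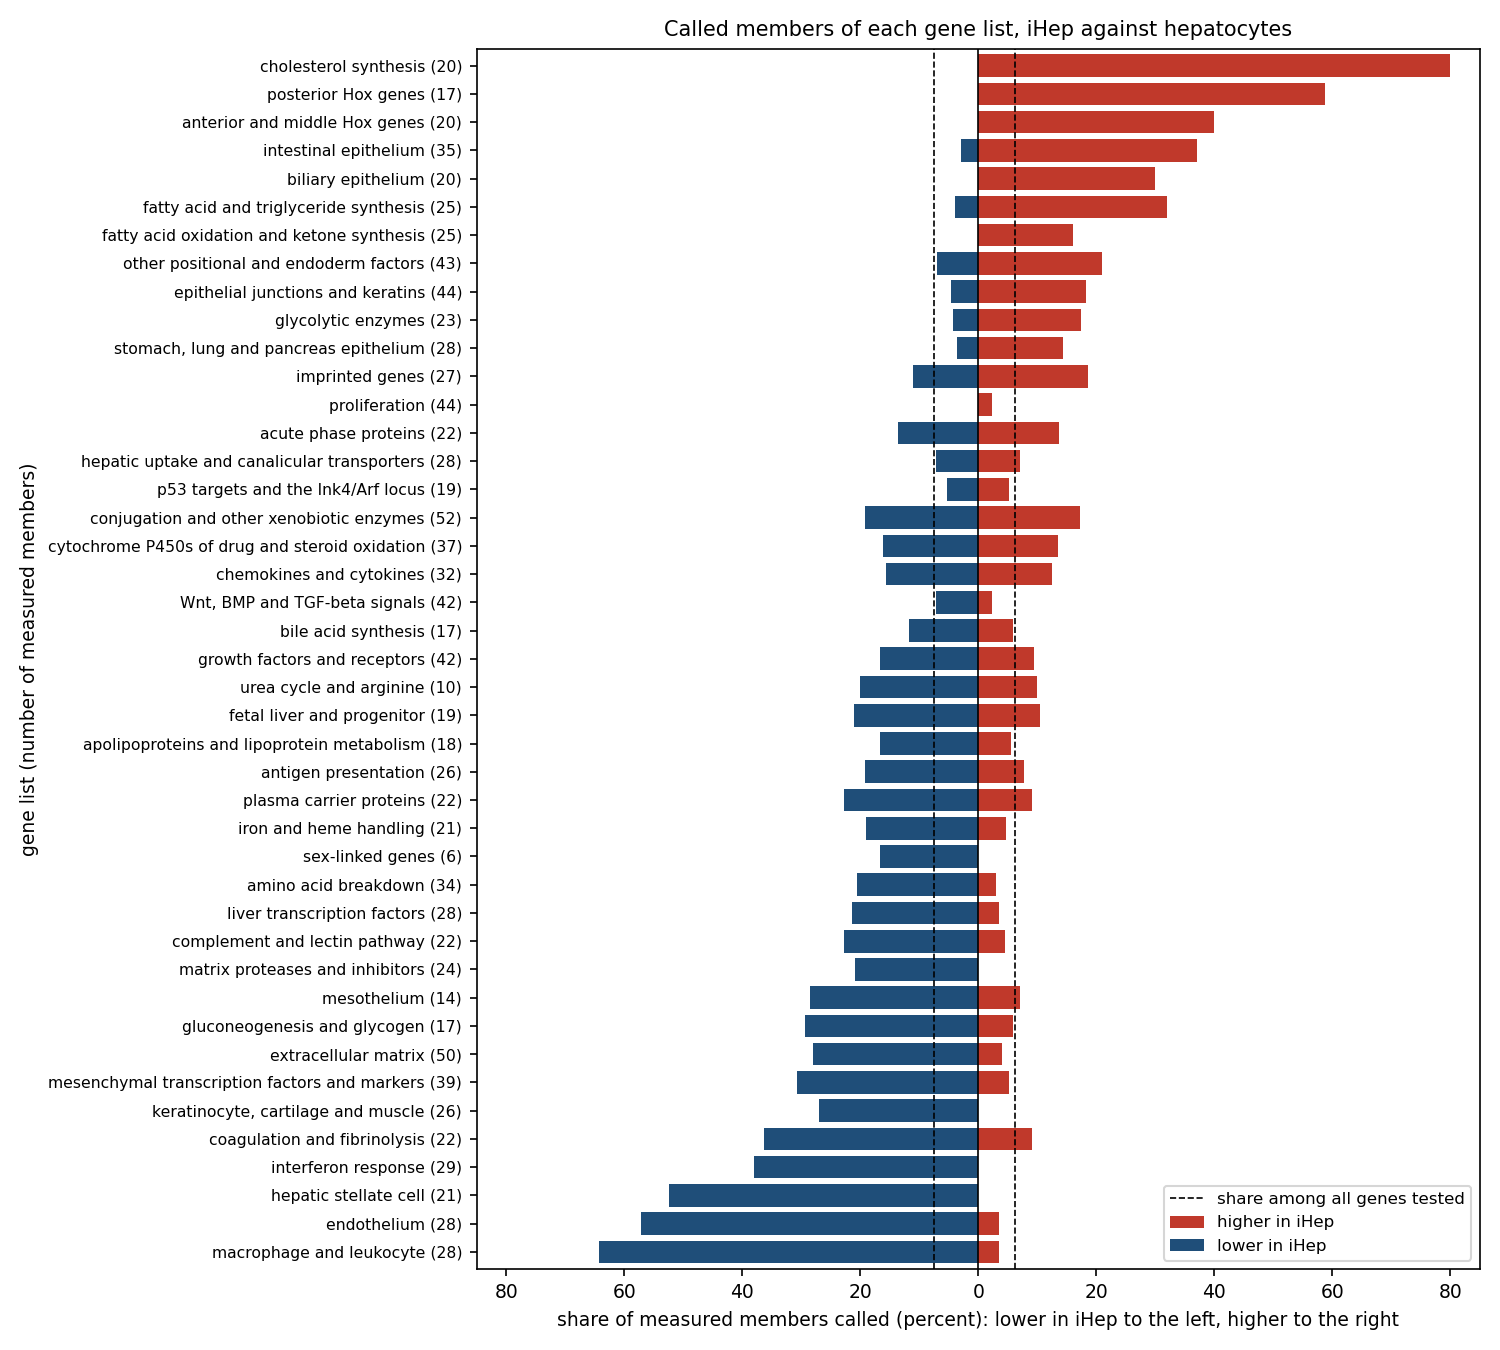
Share of the measured members of each of 43 gene lists that were called higher in iHep (red bars, to the right) or lower in iHep (blue bars, to the left) than in hepatocytes, in percent, with the number of measured members in brackets. Dashed lines mark the shares among all 19087 genes, 6.25% higher and 7.5% lower; cholesterol synthesis and posterior Hox genes reach furthest to the right, macrophage and endothelial genes furthest to the left.

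Secreted liver products were split. Serum albumin, the main plasma protein, was lower in iHep: Alb lay at 0.79, 2.73, 2.62 and 3.98 on the iHep arrays, against 5.07, 5.17, 4.59 and 7.14 on the hepatocyte arrays and between -7.26 and -5.40 on the TTF arrays. The iHep arrays stood between the other groups without touching either, and the difference from hepatocytes was -2.96 ± 0.74 (adjusted p = 0.023). Afp, the fetal counterpart of albumin, lay between 2.74 and 7.19 in iHep, against 1.56 to 5.20 in hepatocytes, and was not called (1.52 ± 0.98, adjusted p = 0.32). Fgb for the fibrinogen beta chain, at 5.45 to 7.82 in iHep and 4.79 to 7.37 in hepatocytes, was not called either (0.33 ± 0.63, adjusted p = 0.77), nor were the carrier genes Ttr (1.34 ± 1.17) and Trf (0.28 ± 1.38).

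Of 22 measured plasma carrier genes 2 were higher and 5 lower in iHep, and 15 were not called, with a median difference of -0.30 against -0.02 over all genes. With paired arrays averaged these were 0 and 2. Igfbp1, for a binding protein of insulin-like growth factors that the liver secretes, lay at -4.18, -2.95, -7.24 and -5.97 in iHep, against 6.13, 4.06, 5.74 and 7.02 in hepatocytes. That made it the largest change of any listed liver gene, at -10.82 ± 0.91 (adjusted p = 6.2e-05). Ambp, the precursor of alpha-1-microglobulin and bikunin, fell by 7.53 ± 0.72 (adjusted p = 0.00013), with 3 iHep arrays between -3.93 and -3.18 and replicate 2 at -0.38. Igfals, for the acid-labile subunit of the same growth factor complex, fell by 4.55 ± 0.77 (-2.80 with a common floor). The inter-alpha-trypsin inhibitor genes Itih4 (3.07 ± 0.74, adjusted p = 0.02) and Itih2 (2.12 ± 0.52, adjusted p = 0.021) were the 2 that rose. Their calls ended without hepatocyte replicate 3 (adjusted p = 0.051 for Itih4 and 0.056 for Itih2), without iHep replicate 4 for Itih4 (0.051) and without hepatocyte replicate 2 for Itih2 (0.058).

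The apolipoprotein genes moved in opposite directions. Apoa1, for the main protein of high density lipoprotein, lay at 2.85 to 3.69 in iHep and at 0.54, 1.15, -1.59 and 2.13 in hepatocytes, and rose by 2.75 ± 0.64 (adjusted p = 0.017). Apob, for the protein of low density lipoprotein, lay at -1.82, -3.28, -2.18 and -3.82 in iHep, against 2.38, 1.01, -0.28 and 0.85 in hepatocytes, and fell by 3.77 ± 0.57 (adjusted p = 0.002). Apoc1 lay between -2.24 and -0.44 in iHep, against 3.07 to 4.76 in hepatocytes, and fell by 5.30 ± 0.49 (adjusted p = 0.00011), a call that held with paired arrays averaged. No array of these 3 genes crossed into the range of the other group. In the whole list 1 of 18 rose and 3 fell, or 6 without hepatocyte replicate 3.

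Coagulation genes leaned down, with 2 of 22 higher, 8 lower and a median of -1.37. With paired arrays averaged 0 and 2 remained. The factor XI gene F11 lay at -6.19, -6.01, -5.68 and -5.71 in iHep, close to its TTF levels of -6.80 to -5.84, against 0.95, -0.10, -0.99 and -0.16 in hepatocytes, and fell by 5.82 ± 0.39 (adjusted p = 2.1e-05). Proc, for the anticoagulant protein C, fell by 5.55 ± 0.46 (adjusted p = 6.2e-05), and the factor X gene F10 was at least 36.6-fold lower, with no iHep array above the limit (-6.09 in the fit, -3.99 with a common floor). Among complement and lectin pathway genes 5 of 22 were lower and 1 higher, or 5 higher without TTF replicate 1. The member that rose was C9, for the last component of the membrane attack complex (3.06 ± 0.61), whereas Mbl2 for mannose-binding lectin fell by 9.50 ± 1.23 and Serping1 for the C1 inhibitor by 4.78 ± 0.67. C1qa, for a chain of complement C1q made by macrophages, fell by 8.19 ± 0.88 (adjusted p = 0.00029). Among acute phase genes 3 of 22 were higher and 3 lower, with 1 higher without iHep replicate 3 or without hepatocyte replicate 2 or 3. Lbp, for lipopolysaccharide-binding protein, lay between 3.89 and 5.62 in iHep, against 0.25, -1.98, 0.26 and 0.63 in hepatocytes, and rose by 5.10 ± 0.91 (adjusted p = 0.0048). The gene of the iron hormone hepcidin, Hamp, lay at -9.03, -7.45, -6.33 and -5.38 in iHep, against 5.82, 3.19, -3.14 and -2.61 in hepatocytes, and fell by 7.86 ± 1.78 (adjusted p = 0.015).

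Among 28 liver transcription factors 6 were lower, 1 higher and 21 not called, with a median of -0.98. With paired arrays averaged only Foxa2 remained. Foxa1 and Foxa2, pioneer factors that open chromatin in endoderm, were both lower. Foxa1 lay at -5.89, -6.64, -7.01 and -7.39 in iHep, against -1.73, -1.68, -2.67 and -2.49 in hepatocytes and -7.05 to -5.69 in TTF. The iHep levels were near those of fibroblasts, and Foxa1 fell by 4.60 ± 0.41 (adjusted p = 9.2e-05). Foxa2 lay at -0.43, -1.32, -1.06 and -0.53 in iHep, against 3.17, 3.06, 2.07 and 2.63 in hepatocytes and -9.07 to -8.60 in TTF. Here the iHep arrays were well above fibroblasts, yet 3.57 ± 0.31 below hepatocytes (adjusted p = 8.2e-05).

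The nuclear receptor gene Nr5a2 (-4.62 ± 0.73), which regulates bile acid genes, the membrane-bound factor gene Creb3l3 (-3.39 ± 0.61) and the GATA factor gene Gata6 (-1.95 ± 0.33) also fell. The farnesoid X receptor gene Nr1h4 fell by 3.30 ± 0.90 (adjusted p = 0.033), with iHep replicate 1 at 1.47 inside the hepatocyte range of 1.20 to 2.57. Its call ended without any of iHep replicates 2 (adjusted p = 0.054), 3 (0.085) or 4 (0.078) and hepatocyte replicates 1 (0.063), 2 (0.058), 3 (0.061) or 4 (0.078), and with a common floor (0.056). The pregnane X receptor gene Nr1i2 was the member that rose (1.78 ± 0.48, adjusted p = 0.033), a call lost without TTF replicate 3 (0.051), iHep replicates 3 (0.067) or 4 (0.079), or hepatocyte replicates 2 (0.068), 3 (0.075) or 4 (0.072). Hnf4a, a central nuclear receptor of the hepatocyte programme, lay at -1.28, -1.06, -2.72 and -2.94 in iHep, against -1.87, -2.33, -3.72 and -2.87 in hepatocytes, and was not called (0.70 ± 0.56, adjusted p = 0.44). Cebpa (-0.62 ± 0.55), Cebpb (0.48 ± 0.39), Ppara (-0.01 ± 0.69) and Prox1 (-1.02 ± 0.54) were not called. The other members not called were Onecut2 (-2.43), Nr1i3 for the constitutive androstane receptor (-2.29), Nr2f2 (-2.03, adjusted p = 0.051), Hhex (-1.35), Nr1h3 (-0.96), Nr0b2 (-0.81), Rxra (-0.58), Klf15 (-0.52), Esrrg (-0.22), Tbx3 (-0.06), Zhx2 (0.06), Mlxipl (0.22) and Tox3 (2.0). Gata4, for a GATA factor of endoderm, was at -7.03 and -7.23 on iHep replicates 1 and 2, -4.04 and -4.27 on replicates 3 and 4, and -4.81 to -3.65 in hepatocytes (-1.34 ± 0.73, adjusted p = 0.24). Foxa3, the third member of the FOXA family, was at -5.32 to -3.15 in iHep and -4.47 to -1.74 in hepatocytes (-1.01 ± 0.63, adjusted p = 0.31). Onecut1 divided the iHep arrays as Gata4 did, at -4.94 and -6.57 on replicates 1 and 2, -0.44 and -0.18 on replicates 3 and 4, and -1.13 to 0.24 in hepatocytes.

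**Figure D2:**
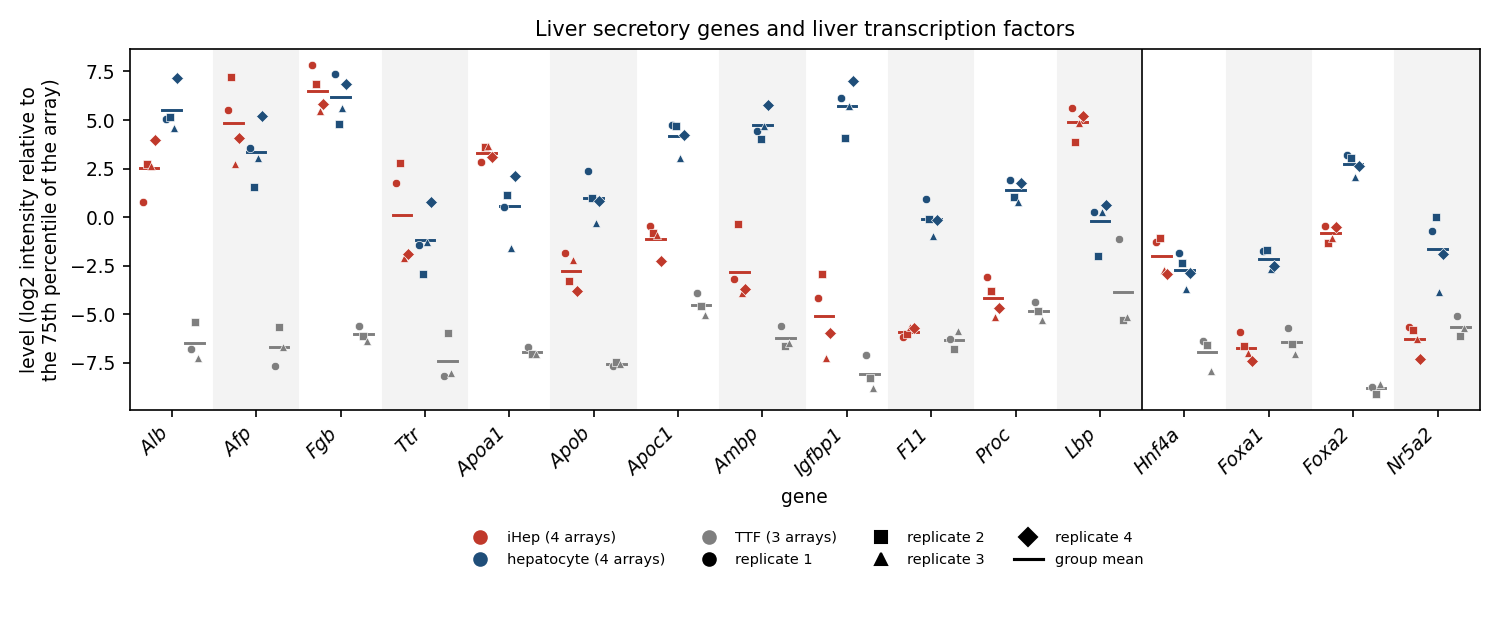
Levels (log2 intensity minus the 75th percentile of the array) of 12 liver secretory genes and, right of the line, 4 liver transcription factors on the iHep (red), hepatocyte (blue) and TTF (grey) arrays; symbols give the replicate and bars the group mean. Igfbp1, Ambp, F11 and Proc lie lower in iHep than in hepatocytes on every array, Fgb and Hnf4a overlap, and F11 and Foxa1 sit near the TTF arrays.

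Enzymes of drug and steroid oxidation changed in either direction, with 5 of 37 cytochrome P450 genes higher and 6 lower. The higher count was 3 without iHep replicate 3 or 4, and the lower count 3 without iHep replicate 4 or hepatocyte replicate 1 or 2. With paired arrays averaged 0 rose and 1 fell. Cyp2s1, an epithelial P450 gene, lay at 3.12, 3.18, 6.02 and 6.52 in iHep, against -2.28, -5.10, -0.27 and 0.45 in hepatocytes, and rose by 6.51 ± 1.18 (adjusted p = 0.0051). Cyp2d26 (3.33 ± 0.58) and Cyp2d9 (1.99 ± 0.33), members of a closely related gene cluster whose probes may share signal, rose as well. Cyp4v3, for a fatty acid hydroxylase, lay between -5.33 and -3.73 in iHep, against 0.55 to 1.43 in hepatocytes and -0.48 to 0.22 in TTF. It was thus lower in iHep than in either other group and fell by 5.46 ± 0.39 (adjusted p = 3.2e-05), whereas Cyp3a11, a main drug-metabolising P450 gene, was not called (0.59 ± 0.57, adjusted p = 0.52).

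Conjugation and other xenobiotic enzymes had 9 of 52 members higher and 10 lower, with 6 lower without TTF replicate 2 or 3 or hepatocyte replicate 2 and 5 without hepatocyte replicate 1. With paired arrays averaged 2 rose and 0 fell. Those 2 were Aldh3a1 and Adh7, for an alcohol dehydrogenase of stomach that oxidises retinol. Adh7 lay at 1.79, 0.77, 1.08 and 1.05 in iHep, against -7.66, -6.71, -5.90 and -5.32 in hepatocytes and -1.79 to -0.24 in TTF, and rose by 7.58 ± 0.51 (adjusted p = 2.1e-05). The liver alcohol dehydrogenase gene Adh1 rose by 4.24 ± 0.62, and the glucuronosyltransferase gene Ugt2b5 fell by 4.15 ± 0.78. In bile acid synthesis 1 of 17 rose and 2 fell. Cyp7b1 of the alternative pathway lay at -9.19 and -7.50 on iHep replicates 1 and 2, both below the limit, at -3.57 and -3.48 on replicates 3 and 4, and between -0.63 and 1.64 in hepatocytes (-6.49 ± 1.16, adjusted p = 0.0048). Cyp39a1, another oxysterol hydroxylase gene, rose by 3.40 ± 0.71, and Cyp7a1, for the rate-limiting enzyme of the main pathway, was near the threshold (-0.97 ± 0.30, adjusted p = 0.054, and 0.041 without iHep replicate 2). Of 28 uptake and canalicular transporter genes 2 rose, namely Atp8b1 (2.45 ± 0.35) and Abcc4 (2.30 ± 0.51), or 4 without iHep replicate 4. The other direction had 2, led by the amino acid carrier gene Slc38a4 (-6.20 ± 0.53, adjusted p = 6.5e-05). The share called was 14.3% in that list and 17.6% in the bile acid list, against 13.7% of all genes.

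Nitrogen and glucose metabolism had calls in both directions. In the urea cycle list 1 of 10 rose and 2 fell, with a median of -0.09. Ass1, for argininosuccinate synthase, lay at -3.59, -1.62, -2.31 and -0.50 in iHep, against 4.16, 3.99, 1.21 and 1.58 in hepatocytes and 2.23 to 3.44 in TTF, so that iHep was the lowest of the 3 groups (-4.74 ± 0.80, adjusted p = 0.0038). Arg1, for arginase, fell by 5.73 ± 1.29, with hepatocyte levels spread from -2.65 to 4.78. Glul, for glutamine synthetase, rose by 1.82 ± 0.31. Amino acid breakdown had 1 of 34 higher, namely Csad of taurine synthesis (2.05 ± 0.47), and 7 lower, or 11 without hepatocyte replicate 3, with a median of -1.25. Agxt, for the peroxisomal aminotransferase that removes glyoxylate, lay below -7.1 in iHep and at -1.02, 0.69, -4.12 and -4.94 in hepatocytes (-5.36 ± 1.19, but -3.55 and not called with a common floor, adjusted p = 0.079), and Upb1 fell by 4.93 ± 0.85. In both genes hepatocyte replicates 1 and 2 stood well above replicates 3 and 4. The same held for Fbp1 of gluconeogenesis, at -6.54 to -4.40 in iHep, against 1.14, 1.41, -3.44 and -2.22 in hepatocytes (-4.48 ± 1.02, adjusted p = 0.015). In its list 1 of 17 rose, or 3 without iHep replicate 1, and 5 fell, or 3 without any of the TTF arrays, iHep replicate 2 or hepatocyte replicates 1 or 2, with a median of 0.26. Glycolytic genes had 4 of 23 higher, among them the phosphofructokinase genes Pfkl (2.19 ± 0.36) and Pfkm (1.90 ± 0.40), and 1 lower, Hk3 of blood cells (-3.88 ± 0.82), with a median of 0.63. For iron, Tfr2, the liver's sensor of transferrin, lay between -5.91 and -3.49 in iHep, against 1.37 to 1.83 in hepatocytes (-6.04 ± 0.46, adjusted p = 4.3e-05), and the iron exporter gene Slc40a1 fell by 4.48 ± 0.57. The iron importer gene Slc11a2 rose by 1.38 ± 0.21, and in all 1 of 21 iron and heme genes rose and 4 fell.

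Cholesterol synthesis genes were higher in iHep nearly as a whole. Of 20 measured genes 16 rose, 0 fell and 4 were not called, with a median of 1.93 against -0.02 over all genes. Without regard to any test, the iHep arrays lay above all hepatocyte arrays for the same 16 of the 20 genes, against 9.69% of all genes. Leaving out any 1 array gave 15 to 17 higher calls, but with paired arrays averaged 0 were called. The changes were modest and even beside those of the genes above.

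Lss, for lanosterol synthase, which closes the sterol ring, lay at 1.20, 0.69, 1.64 and 1.60 in iHep, against -1.81, -1.74, -1.81 and -1.02 in hepatocytes (2.88 ± 0.30, adjusted p = 0.00023). Tm7sf2, for a sterol reductase, lay at 4.99, 5.07, 3.56 and 3.54 in iHep, against 0.05, -0.33, 1.41 and 2.41 in hepatocytes (3.41 ± 0.62, adjusted p = 0.0054). Pmvk, for phosphomevalonate kinase, rose by 2.70 ± 0.31 (adjusted p = 0.00039). Further members, named after their values were seen, were Hmgcs1 for the synthase at the entry to the pathway (2.31 ± 0.32), the squalene epoxidase gene Sqle (2.25 ± 0.34), Fdps (2.02 ± 0.40), Insig1, which holds the sterol sensor in the endoplasmic reticulum (2.35 ± 0.33), and Srebf2, for the SREBP2 factor that drives these genes (1.85 ± 0.30). The TTF means lay between those of iHep and hepatocytes for these 8 genes. The promoters of 3 of them are given as RefSeq windows of 300 bases, 250 before and 50 after the annotated start, in GRCm38.p6 and in the direction of transcription, since SREBP2 and the CCAAT-binding factor NF-Y are known to act together at such promoters. Capitals mark CCAAT on either strand (written ATTGG on the other strand) and, in Hmgcs1 only, also TCACCCCAC, which holds the letters TCACNCCAC of a sterol element 137 bases before the start.
Hmgcs1, chr13:119690101-119690400, plus strand: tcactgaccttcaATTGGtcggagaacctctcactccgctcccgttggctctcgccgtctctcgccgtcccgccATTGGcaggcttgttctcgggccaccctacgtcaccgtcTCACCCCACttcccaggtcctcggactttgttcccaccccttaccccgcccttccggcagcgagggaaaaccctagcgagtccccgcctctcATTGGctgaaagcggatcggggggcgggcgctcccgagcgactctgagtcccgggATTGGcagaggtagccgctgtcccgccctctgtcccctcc
Tm7sf2, chr19:6067801-6068100, minus strand: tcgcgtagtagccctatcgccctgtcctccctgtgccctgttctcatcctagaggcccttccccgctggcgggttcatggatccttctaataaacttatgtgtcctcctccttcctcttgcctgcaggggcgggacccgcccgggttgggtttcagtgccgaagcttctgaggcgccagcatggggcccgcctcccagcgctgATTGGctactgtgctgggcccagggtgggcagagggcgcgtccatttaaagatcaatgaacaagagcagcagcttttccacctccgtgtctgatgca
Lss, chr10:76531355-76531654, plus strand: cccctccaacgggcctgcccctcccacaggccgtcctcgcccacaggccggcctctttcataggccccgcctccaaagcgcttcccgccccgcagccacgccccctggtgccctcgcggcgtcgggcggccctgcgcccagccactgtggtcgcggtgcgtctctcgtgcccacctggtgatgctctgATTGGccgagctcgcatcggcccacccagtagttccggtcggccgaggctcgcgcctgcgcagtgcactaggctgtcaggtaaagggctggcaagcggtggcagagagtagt

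Hmgcs1 held 4 CCAAT motifs in this window, and Tm7sf2 and Lss held 1 each. CCAAT was present, on either strand, in at least 1 window of all 16 list members that had one, against 41.1% of the 27025 genes with a window. TCACNCCAC was present in 1 of those 16 genes and in 1.44% of all genes. The 16 genes with a window are not the 16 that rose. They include Mvk, Ebp and Sc5d, which were not called, and lack Sqle and Fdps, which rose. The motifs do not overlap in these letters, chromosome 18 was left out, and a match here describes letters and not binding.

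**Figure D3:**
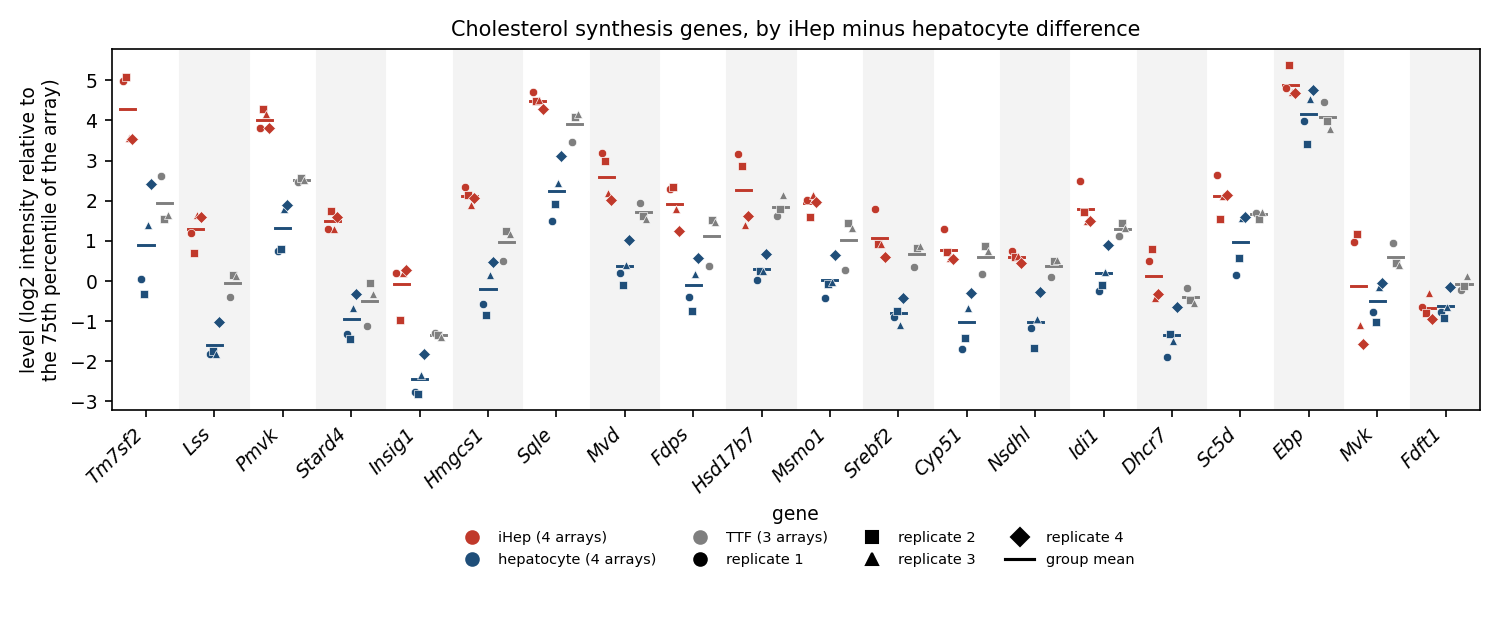
Levels (log2 intensity minus the 75th percentile of the array) of the 20 measured cholesterol synthesis genes on the iHep (red), hepatocyte (blue) and TTF (grey) arrays, ordered by the difference between iHep and hepatocytes; symbols give the replicate and bars the group mean. From Tm7sf2 to Dhcr7 the iHep arrays lie above the hepatocyte arrays without overlap, with TTF mostly in between; Sc5d, Ebp, Mvk and Fdft1 overlap.

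Fatty acid and triglyceride synthesis genes leaned the same way, with 8 of 25 higher and 1 lower, and 0 of either with paired arrays averaged. Scd1, for stearoyl-CoA desaturase, lay at 3.55, 3.02, 4.41 and 4.78 in iHep, against -0.27, -0.88, 2.35 and 1.70 in hepatocytes (3.21 ± 0.69, adjusted p = 0.012), and Acss2, for cytosolic acetyl-CoA synthetase, rose by 1.96 ± 0.33. The member that fell was Plin2, for the coat protein of lipid droplets, at 3.64 to 4.27 in iHep and 7.89, 7.79, 5.49 and 5.68 in hepatocytes (-2.71 ± 0.54, adjusted p = 0.0082). Fatty acid oxidation and ketone synthesis had 4 of 25 higher and 0 lower, with 2 higher without iHep replicate 1 or hepatocyte replicate 1 or 2. The pantetheinase gene Vnn1, a target of the fatty acid receptor PPAR-alpha, was among them (3.74 ± 0.81). In that list 16.0% of the members were called, against 13.7% of all genes.

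Posterior Hox genes were mostly higher in iHep than in hepatocytes. The list used here also holds Hoxc8 and Hoxd8, which are usually counted as middle Hox genes. Of 17 measured genes 10 rose, 0 fell and 7 were not called, with a median of 3.06, and 5 of the 10 were still called with paired arrays averaged, where 0.189% of all genes were. Hoxa10 lay at 1.32, 0.80, 1.07 and 0.61 in iHep, against -8.72, -8.80, -8.53 and -8.04 in hepatocytes and 0.53, 0.53 and 0.67 in TTF. The iHep and TTF arrays were within 1 log2 unit of each other, no hepatocyte array was above the limit, and the gene was at least 260-fold higher in iHep (adjusted p = 1.9e-08). Hoxa11 lay at 0.83 to 2.45 in iHep, against -8.70 to -7.26 in hepatocytes and 1.62 to 2.30 in TTF (9.80 ± 0.45, adjusted p = 1.7e-06).

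The other 3 genes that kept their call in that setting were Hoxb13 (7.88 ± 0.70), Hoxc9 (6.77 ± 0.60) and Hoxc10 (5.81 ± 0.52). Hoxa9 (4.85 ± 0.56), Hoxb9 (5.28 ± 0.83), Hoxa13 (3.06 ± 0.70), Hoxc12 (at least 10.3-fold) and Hoxc8 (2.55 ± 0.61) were also called. Hoxc8 was not called without iHep replicate 3 (adjusted p = 0.052) or hepatocyte replicates 1 (0.055) or 2 (0.053). With a common floor 3 of the 10 calls ended, namely Hoxa13 (1.86, adjusted p = 0.072), Hoxc12 (2.18, adjusted p = 0.18) and Hoxc8 (0.59, adjusted p = 0.13). Hoxb9 and Hoxc12 differed between the iHep pairs, at 1.39 and 1.87 against -1.70 and -2.04 for Hoxb9, and at -1.37 and -2.14 against -5.22 and -6.27 for Hoxc12. Hoxc13, which lay between -3.12 and -2.72 in TTF, was at -7.47 to -5.34 in iHep and -8.41 to -7.18 in hepatocytes and was not called (0.97 ± 0.46, adjusted p = 0.18). None of Hoxd8 (-0.83 ± 0.86), Hoxd9 (1.04 ± 0.39), Hoxd10 (-0.21 ± 0.42), Hoxd11 (0.51 ± 0.47), Hoxd12 (-0.37 ± 0.37) and Hoxd13 (0.56 ± 0.40) was called. The members that rose thus lie in the HoxA, HoxB and HoxC clusters, and the measured HoxD members were low in all 3 groups, at -4.84 or below. Hoxd9 was, however, called with 7 other settings, among them quantile normalization (1.19, adjusted p = 0.021), the median shift (1.28, 0.049) and leaving out hepatocyte replicate 1 (1.38, 0.032).

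**Figure D4:**
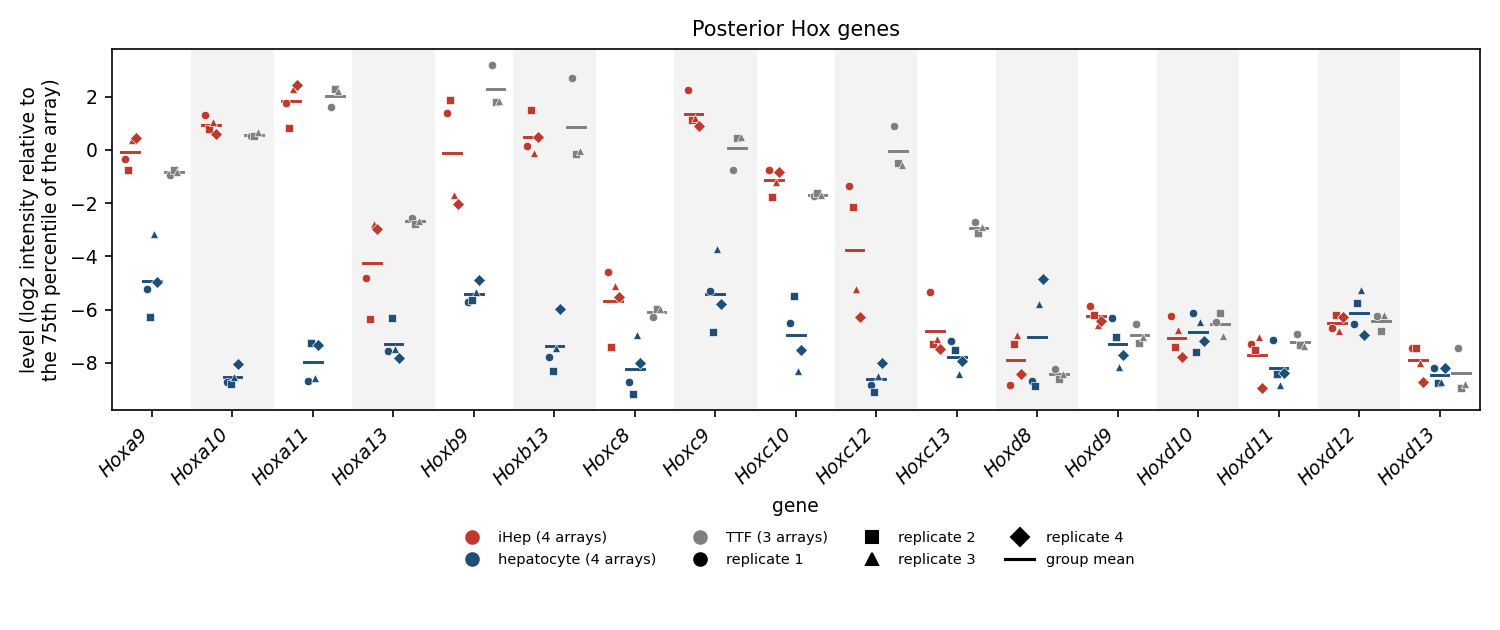
Levels (log2 intensity minus the 75th percentile of the array) of the 17 measured posterior Hox genes on the iHep (red), hepatocyte (blue) and TTF (grey) arrays; symbols give the replicate and bars the group mean. For Hoxa10, Hoxa11, Hoxb13, Hoxc9 and Hoxc10 the iHep arrays lie far above the hepatocyte arrays and near the TTF arrays, while the Hoxd genes are low in all 3 groups.

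Among 20 anterior and middle Hox genes 8 rose and 0 fell, or 5 without hepatocyte replicate 1, and 0 were called with paired arrays averaged. Hoxc6 lay between 1.73 and 2.75 in iHep, against -4.47, -5.15, -1.05 and -2.35 in hepatocytes and -0.65 to -0.53 in TTF (5.38 ± 0.75, adjusted p = 0.0013). Hoxb3 (3.93 ± 0.40) and Hoxb7 (3.34 ± 0.72) rose as well. For Hoxc6 and Hoxb3 the iHep arrays stood above the TTF arrays too, while for Hoxb7 they lay just below them, at 1.49 to 1.77 against 1.87 to 2.20.

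Other positional and endoderm factors had 9 of 43 members higher and 3 lower. Barx2, a homeobox gene of epithelia, lay at 1.60 and 1.63 on iHep replicates 1 and 2 and -2.73 and -3.68 on replicates 3 and 4, against -6.75 to -5.05 in hepatocytes (5.06 ± 1.1, adjusted p = 0.013). Pdx1, a factor of pancreas and duodenum, lay at -3.31, -4.23, -0.78 and -1.0 in iHep, against -7.24 to -6.48 in hepatocytes and -8.49 to -7.12 in TTF (4.64 ± 0.71, adjusted p = 0.0022). Cdx2, the intestinal homeobox gene, lay at -2.33, 0.56, -2.31 and -1.60 in iHep, against -4.69, -7.65, -5.30 and -4.13 in hepatocytes and -9.22 to -7.37 in TTF (4.02 ± 0.85, adjusted p = 0.011). These 3 genes were above both other groups on every iHep array. Msx1 (4.18 ± 0.92, but 3.13 and not called with a common floor, adjusted p = 0.054) and the endoderm factor gene Sox17 (2.82 ± 0.62) rose too. Tbx20 (-3.42 ± 0.59, or -1.80 with a common floor), Lhx2 (-3.39 ± 0.68) and Hand2 (-2.68 ± 0.48) fell, the last 2 known in liver from stellate cells.

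Intestinal epithelium genes were higher in iHep in 13 of 35 cases and lower in 1, with a median of 1.64, and 3 and 1 were called with paired arrays averaged. The summed linear level of the 35 genes, in units of the array's 75th percentile, was 310.1, 170.5, 815.5 and 889.8 on the iHep arrays, against 64.0, 27.3, 27.3 and 46.4 on the hepatocyte arrays and 0.871 to 1.17 on the TTF arrays. A few members carried these sums. Reg3g alone gave 236.4, 112.0, 275.9 and 271.9 in iHep, and Tff3, for a trefoil peptide of mucus, gave 246.5 and 258.9 on iHep replicates 3 and 4. Without these 2 genes, left out after their values were seen, the sums were 70.0, 58.4, 293.0 and 359.0 in iHep, against 63.1, 27.2, 27.2 and 46.3 in hepatocytes, and iHep replicate 2 then lay within the hepatocyte range. Slc5a1, for the glucose transporter of the gut, ran the other way among the iHep arrays, at -0.50 and -0.62 on replicates 1 and 2 and -5.04 and -4.97 on replicates 3 and 4 (5.30 ± 0.99, adjusted p = 0.0059), with 1 hepatocyte array above the limit. With a common floor Slc5a1 was not called (3.11, adjusted p = 0.094). The member that fell was Tm4sf4, a tetraspan gene of intestine and liver, at -4.65 to -2.38 in iHep and 4.52 to 5.72 in hepatocytes (-8.46 ± 0.49, adjusted p = 8.8e-06). As a linear level Tm4sf4 made up most of each hepatocyte sum, with or without Reg3g and Tff3. The hepatocyte range that iHep replicate 2 fell into thus rests largely on this gene.

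In the list of stomach, lung and pancreas genes 4 of 28 rose and 1 fell, or 7 rose without iHep replicate 2. The share called was 17.9%, against 13.7% of all genes. Gkn2 lay at 5.80, -3.34, 8.33 and 8.29 in iHep, against -7.17 to -4.41 in hepatocytes, so that replicate 2 stood near the hepatocyte range. Sftpd, for surfactant protein D of lung and other mucosae, lay at -0.44, 2.86, 3.23 and 2.88 in iHep, against -7.87 to -5.03 in hepatocytes (8.17 ± 0.86, adjusted p = 0.00025). Biliary epithelium genes rose in 6 of 20 cases and fell in 0. That was 30.0% of the list, against 6.25% of all genes called higher. Of the fixed biliary markers, Sox9 was not called (1.01 ± 1.07, adjusted p = 0.57). Krt19 rose by 1.93 ± 0.56 (adjusted p = 0.042, but 0.065 with a common floor). For Krt19, hepatocyte replicate 1, at 5.92, lay inside the iHep range of 5.51 to 7.08. Cftr, for the chloride channel of bile duct and gut epithelium, lay at -0.24, 0.10, 1.70 and 1.59 in iHep, against -6.40 to -4.07 in hepatocytes (6.42 ± 0.60, adjusted p = 0.00011). Of 44 epithelial junction and keratin genes 8 rose, such as the claudin gene Cldn7 (3.75 ± 0.59), and 2 fell, such as Marveld2 of tricellular junctions (-4.23 ± 0.66). The higher count was 5 without iHep replicates 3 or 4 or hepatocyte replicate 3, and 4 without hepatocyte replicate 2. Cdh1 for E-cadherin, at 1.95 to 4.0 in iHep and 1.47 to 3.04 in hepatocytes, was not called (1.05 ± 0.54, adjusted p = 0.21). Nor was Krt18 for a simple epithelial keratin (-1.19 ± 0.93, adjusted p = 0.42). The keratin gene Krt8 had linear levels of 8.74, 0.697, 96.6 and 97.3 in iHep, against 308.3, 249.2, 64.4 and 140.4 in hepatocytes. For Krt8, iHep replicates 1 and 2 thus lay below every hepatocyte array. Epcam, which marks biliary and gut epithelium, missed the threshold (2.46 ± 0.78, adjusted p = 0.057) and passed it without iHep replicate 1 (0.025) or hepatocyte replicate 4 (0.042), with quantile normalization (0.039) and with the median shift (0.033).

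Genes of other liver cell types were lower in iHep. In the macrophage and leukocyte list 18 of 28 fell and 1 rose, with a median of -4.21, and 4 fell with paired arrays averaged. The summed level of the list was 14.0, 34.1, 16.6 and 23.7 in iHep, against 318.9, 216.1, 27.9 and 53.9 in hepatocytes, so that iHep replicate 2 lay above hepatocyte replicate 3. Cd14, also in the acute phase list, was the member that rose (1.58 ± 0.47, adjusted p = 0.047, but 0.066 with a common floor). It lay at 3.72, 5.04, 3.98 and 4.51 in iHep, against 3.90, 2.76, 1.43 and 2.83 in hepatocytes. As a linear level Cd14 made up most of each iHep sum, so the overlap of iHep replicate 2 rests on this gene. Fewer cells of a type and less RNA per cell cannot be told apart in such samples, and the part of other cells in the differences of the liver genes above was not tested.

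C1qc, for a chain of complement C1q made by macrophages, was under the limit on all 4 iHep arrays and lay at 4.39, 3.66, -0.19 and 1.08 in hepatocytes, at least 652-fold lower in iHep (adjusted p = 7.5e-05). Tyrobp, an adaptor of myeloid receptors, lay between -6.67 and -6.35 in iHep, against 4.48, 3.93, 1.33 and 1.80 in hepatocytes (-9.33 ± 0.63, adjusted p = 2.1e-05). The Kupffer cell lectin gene Clec4f lay at -7.85 to -5.11 in iHep, against 2.98, 1.86, -3.67 and -2.68 in hepatocytes (-6.01 ± 1.34, adjusted p = 0.014). Of the other fixed macrophage markers, Adgre1 for F4/80 was under the limit on all iHep arrays and at least 20.9-fold lower (-5.73 in the fit, -3.70 with a common floor), and Marco fell by 7.91 ± 1.02. Ptprc for CD45 fell by 2.86 ± 0.74 (adjusted p = 0.028), with all 4 iHep arrays above the limit, a call lost without iHep replicates 3 (0.074) or 4 (0.069) or hepatocyte replicates 1 (0.076) or 2 (0.073). In each of these 6 genes hepatocyte replicates 1 and 2 exceeded replicates 3 and 4.

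Endothelial genes fell in 16 of 28 cases and rose in 1, with a median of -2.66, and 3 fell with paired arrays averaged. The summed level was 8.24, 6.93, 4.10 and 4.07 in iHep, against 20.2, 28.6, 5.34 and 14.1 in hepatocytes, so that the sums overlapped at hepatocyte replicate 3. Emcn for endomucin, under the limit on every iHep array, was at least 132-fold lower (adjusted p = 2.1e-05). Robo4 lay at -7.29 to -5.92 in iHep, against 1.54, 2.31, -1.93 and 0.30 in hepatocytes (-7.01 ± 0.80), and Clec1b fell by 6.45 ± 0.94. Of the fixed markers, Kdr for the VEGF receptor (-3.35 ± 0.42) and Stab2 of the sinusoid (-2.84 ± 0.51) fell, whereas Cdh5 (-0.16 ± 1.47), Lyve1 (0.12 ± 0.60), Tek (-0.41 ± 1.15) and Pecam1 (-2.24 ± 0.81, adjusted p = 0.092, but 0.015 without hepatocyte replicate 3) were not called. Cdh5 lay at -2.13, -6.30, 0.25 and 0.82 in iHep, so the iHep arrays did not lack every endothelial marker.

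Hepatic stellate cell genes fell in 11 of 21 cases and rose in 0, with a median of -2.90, and 1 fell with paired arrays averaged. Their summed level was 6.03, 7.70, 5.79 and 8.71 in iHep, against 29.6, 17.7, 142.2 and 110.7 in hepatocytes and 109.2 to 150.5 in TTF. Lrat, which makes the retinyl esters stored by these cells, had 1 iHep array above the limit and lay at -2.87, -1.18, -2.37 and -0.06 in hepatocytes (-6.56 ± 0.56, adjusted p = 6.5e-05, or -4.28 with a common floor). Cygb for cytoglobin (-5.78 ± 1.16), Des for desmin (-4.87 ± 0.65) and Reln for reelin (-5.01 ± 0.92) fell too, while Gfap, between -8.86 and -7.29 on all 8 arrays, was not called (0.00 ± 0.34). Mesothelial genes fell in 4 of 14 cases and rose in 1, the Krt19 gene described above. However, 0 fell without iHep replicate 3 or hepatocyte replicates 3 or 4. The count was 1 without iHep replicate 1, and 2 without iHep replicates 2 or 4.

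**Figure D5:**
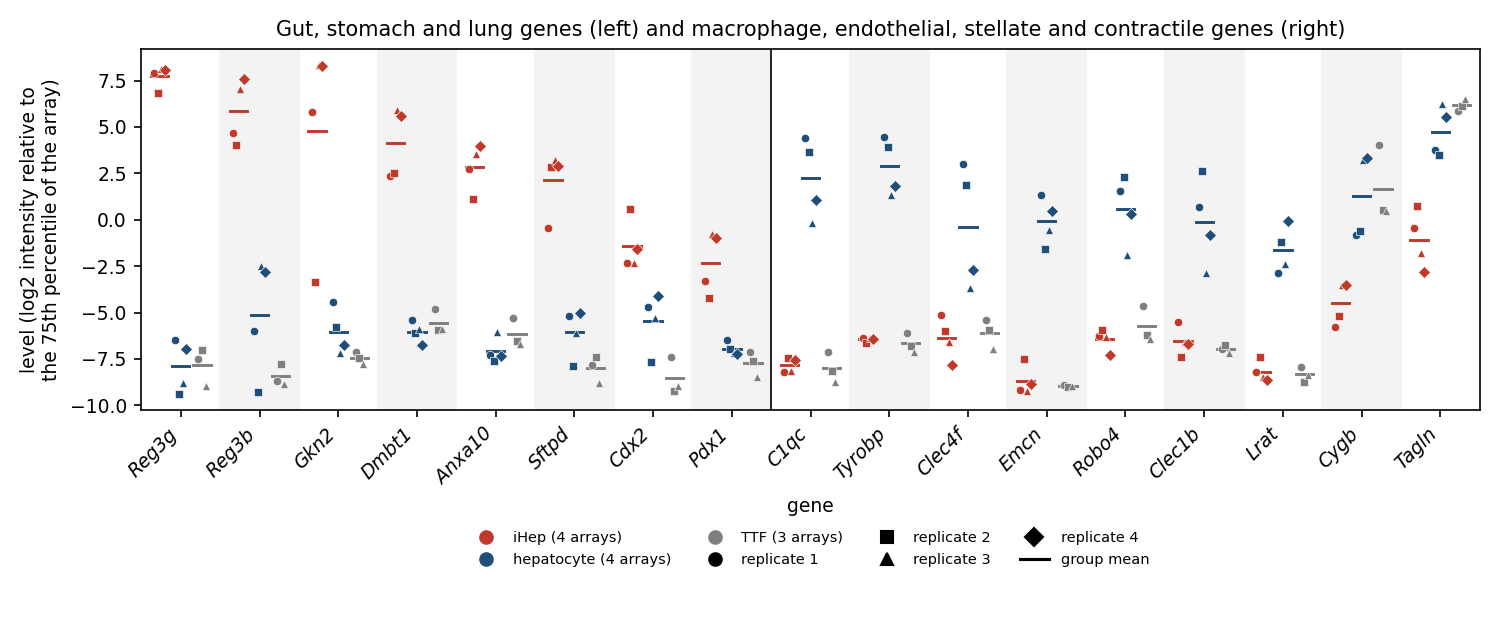
Levels (log2 intensity minus the 75th percentile of the array) of 8 gut, stomach and lung genes and, right of the line, 9 macrophage, endothelial, stellate cell and contractile genes on the iHep (red), hepatocyte (blue) and TTF (grey) arrays; symbols give the replicate and bars the group mean. On the left the iHep arrays lie above the other groups on every array, and on the right they lie below the hepatocyte arrays on every array, with hepatocyte replicates 1 and 2 the highest for Clec4f.

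Mesenchymal genes leaned lower in iHep than in the hepatocyte cultures. Of 39 mesenchymal transcription factors and markers 12 fell and 2 rose, and 0 of either with paired arrays averaged. The summed level of that list was 24.9, 30.1, 32.8 and 28.4 in iHep, against 73.7, 47.5, 513.7 and 268.3 in hepatocytes and 552.5 to 653.7 in TTF. Hepatocyte replicates 3 and 4 thus stood between replicates 1 and 2 and the fibroblasts. Myl9 and Tagln carried part of these sums. Without these 2 genes the sums were 22.5, 27.1, 32.1 and 27.7 in iHep, against 45.7, 27.4, 276.7 and 159.1 in hepatocytes. Hepatocyte replicate 2 then lay within the iHep range. Tagln, for the smooth muscle protein transgelin, lay at -0.43, 0.75, -1.78 and -2.80 in iHep, against 3.73, 3.50, 6.22 and 5.54 in hepatocytes and 5.85 to 6.52 in TTF (-5.81 ± 0.80, adjusted p = 0.0012). Myl9, for a myosin light chain, fell by 5.34 ± 0.84 and Eng, for endoglin, by 6.16 ± 0.79. Nt5e, for the surface nucleotidase CD73, rose by 1.42 ± 0.31. The fixed marker Vim was not called (-0.995 ± 0.436, adjusted p = 0.15).

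In the extracellular matrix list 14 of 50 fell and 2 rose, with 7 lower without hepatocyte replicate 3 or without replicate 4. Ogn, for osteoglycin, fell by 6.78 ± 1.31. The basement membrane laminin gene Lama5 (3.38 ± 0.64) and Fbln1 for fibulin (5.19 ± 0.91) were the 2 that rose. Col1a1, the main fibrillar collagen gene, lay at -6.06, -3.72, 3.10 and 3.98 in iHep, against 2.68, 1.50, 6.91 and 6.48 in hepatocytes, and was not called (-5.07 ± 2.13, adjusted p = 0.13). Of 24 matrix proteases and inhibitors 5 fell, or 8 without hepatocyte replicate 2, among them the macrophage elastase gene Mmp12 (-5.71 ± 1.15), Adam8 (-5.22 ± 0.63) and Adam12 (-5.15 ± 0.68, or -3.33 with a common floor). Keratinocyte, cartilage and muscle genes fell in 7 of 26 cases, or 4 without hepatocyte replicate 3 or 4.

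Interferon response genes fell in 11 of 29 cases and rose in 0, with a median of -1.79. The count was 7 without iHep replicate 4, 6 without hepatocyte replicate 1 or 2, and 0 with paired arrays averaged. Gbp2, a guanylate-binding protein gene, lay at -1.98, -2.57, -3.49 and -4.09 in iHep, against 0.62, 0.27, 1.17 and 0.76 in hepatocytes and 0.20 to 1.64 in TTF (-3.73 ± 0.48, adjusted p = 0.0008). Ifit1 lay between -5.55 and -4.63 in iHep, against -1.09, -1.42, -1.13 and -2.84 in hepatocytes and -1.77 to -1.50 in TTF (-3.37 ± 0.40, adjusted p = 0.0005). In both genes the iHep arrays lay below hepatocytes and fibroblasts alike, and the cause was not tested. In the antigen presentation list 2 of 26 rose and 5 fell, among them the class II loading gene H2-DMb1 (-4.03 ± 0.61). That count of 5 was 2 without iHep replicate 4 or hepatocyte replicates 1 or 2, and 3 without TTF replicates 2 or 3, iHep replicate 3 or hepatocyte replicate 4.

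Signalling genes showed a few large changes. Fgf7, for an epithelial growth factor made by mesenchyme, lay at 3.03, 2.89, 2.73 and 3.36 in iHep, against -4.52, -4.54, -2.80 and -1.54 in hepatocytes and 2.57 to 2.76 in TTF. The iHep levels matched those of fibroblasts to within 1 log2 unit, and the difference from hepatocytes was 6.35 ± 0.58 (adjusted p = 0.00011). Fgf1 rose by 3.08 ± 0.38, and in its list of growth factors and receptors 4 of 42 rose and 7 fell, including Ccn2 for connective tissue growth factor (-3.77 ± 0.68). Among Wnt, BMP and TGF-beta signals 1 of 42 rose and 3 fell, namely Inhbb (-3.78 ± 0.64), Bmp5 (-2.90 ± 0.38) and Rspo3 (-3.24 ± 0.46, or -2.10 with a common floor), which amplifies Wnt signals and is known in liver from endothelial and stellate cells. The share called in this list was 9.52%, below the 13.7% of all genes. The chemokine genes Cx3cl1 (4.18 ± 0.32, adjusted p = 4.2e-05, or 2.74 with a common floor) and Ccl20 (4.48 ± 0.89) rose and Cxcl13 fell (-6.20 ± 1.42, but -4.70 and not called with a common floor, adjusted p = 0.068). In that list 4 of 32 rose and 5 fell, with 2 higher without hepatocyte replicate 1 or 2, and 3 lower without those or iHep replicates 3 or 4.

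Genes of growth and development gave small numbers of calls. Of 44 proliferation genes 1 rose, E2f2 (2.94 ± 0.66), and 0 fell, or 7 fell without iHep replicate 2, with a median of -0.46. That share of calls, 2.27%, is below the 13.7% of all genes. Of 19 p53 targets and genes of the Ink4/Arf locus 1 rose and 1 fell. Fetal liver and progenitor genes had 2 of 19 members higher and 4 lower. Igf2bp3, for a fetal RNA-binding protein, lay at 0.61, 0.04, -0.37 and -0.64 in iHep, against -5.58 to -4.05 in hepatocytes and -1.27 to -0.59 in TTF (4.86 ± 0.39, adjusted p = 5.5e-05). The lower count in that list was 1 without iHep replicates 3 or 4 or hepatocyte replicates 3 or 4, and 2 without replicate 1 of either group, and 4 rose without iHep replicate 1. Imprinted genes had 5 of 27 higher and 3 lower, with 3 higher without hepatocyte replicate 1 or 2 and 5 lower without iHep replicate 1. Zim1 rose by 4.45 ± 0.98, with 1 hepatocyte array above the limit (2.22 and not called with a common floor, adjusted p = 0.17), and Dlk1 of fetal liver and mesenchyme fell by 2.40 ± 0.49.

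Sex-linked genes divided the iHep arrays in the same pairs as the rank correlations. Xist, the RNA of the inactive X chromosome, lay at -8.84, -7.10, 2.02 and 1.95 in iHep, against -8.90 to -7.38 in hepatocytes and -8.74 to -8.39 in TTF. The Y-linked gene Eif2s3y lay at 0.60, 1.34, -9.04 and -8.58 in iHep, against 2.35 to 3.03 in hepatocytes and 2.32 to 2.44 in TTF. Kdm5d, also Y-linked, lay at -2.52, -1.25, -8.22 and -8.53 in iHep, against -1.46 to -0.05 in hepatocytes. On iHep replicates 3 and 4 these Y-linked genes and Uty, at -8.80 and -8.25, were under the limit, and Xist was high, unlike on every other array of the 3 groups. That is a female pattern, and the other arrays had a male one. Sex and other differences between the iHep pairs cannot be told apart here. The difference of Uty was called (-2.41 ± 0.64, adjusted p = 0.03, or -1.43 with a common floor), but not without any 1 of iHep replicates 3 (0.066) or 4 (0.073) or hepatocyte replicates 1 (0.056), 2 (0.051), 3 (0.072) or 4 (0.068). Xist (adjusted p = 0.13, but 0.032 without iHep replicate 1), Eif2s3y (0.065, but 0.032 and 0.019 without iHep replicates 1 or 2) and Kdm5d (0.072, but 0.047 and 0.016) were not called. Of the 6 sex-linked genes 1 was thus lower, or 3 without iHep replicate 1 or 2. Eif2s3x (-0.36 ± 0.24) and Kdm6a (0.67 ± 0.23) of the X chromosome were not called.

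The fibroblast arrays show where the iHep level of a called gene stood relative to the starting cell type, although day and medium differed for TTF and the comparisons share the iHep arrays. For 772 of the 1432 genes lower in iHep (53.9%) the TTF mean was nearer the iHep mean than the hepatocyte mean, as it was for 476 of the 1192 higher genes (39.9%) and for 50.8% of all genes tested. The median level of the lower genes was -5.32 in iHep, against -2.13 in hepatocytes and -3.88 in TTF. That of the higher genes was -0.58 in iHep, against -3.02 in hepatocytes and -2.60 in TTF. Hoxa10, Hoxa11 and Fgf7 were examples of higher genes whose iHep mean was within 1 log2 unit of the TTF mean, and Foxa1 and F11 of such lower genes. Reg3g, Pdx1 and Lss stood above both other groups, and Ass1, Cyp4v3, Gbp2 and Tagln below both.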

How the data were processed

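RNA levels were measured in 13 samples, each on 1 one-colour array. The deposited values are linear intensities, made with Agilent Feature Extraction 10.5.1.1 per the submitters' processing notes; how background was handled, what followed and which slides or scans held the arrays is not given in the sources used here. Of 45018 features, 33653 carried 1 gene symbol in the platform annotation, 56 several and 11309 none; for 33517 the gene ID was found in the RefSeq mouse table.

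Log2 intensities were shifted by the 75th percentile of each array and averaged over probes, giving 19087 genes, 8343 of them with several probes. The local floor of a feature was the minimum over 101 neighbouring features. Groups were compared with limma 3.58.1 in R 4.3.3 (lmFit, eBayes, Benjamini-Hochberg adjustment over all genes), with 1 spread for 3 groups. The procedure was tested on simulated data, where it recovered 30% of changes of 1.5 log2 units, 38% of 2, 64% of 3 and 92% of 4. The simulated arrays were independent of each other, without the pairs seen in the real ones. The simulation therefore cannot give the error rate for paired arrays. Tables and figures were made with Python 3.11.15, pandas 2.3.3, NumPy 2.4.6 and matplotlib 3.10.9. The single arrays of a mixed culture and of embryonic fibroblasts were left out.

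The gene lists and members were chosen with earlier results of these data known. Named genes are the 15 largest increases and 15 largest decreases among called genes whose arrays do not overlap, which were above the limit throughout the brighter group and have no provisional symbol; the 3 largest calls in each direction of each list, as far as described; all posterior Hox, liver transcription factor and sex-linked genes described; and fixed markers. Other cholesterol genes were named after their values were seen. Replicate numbers were checked for pairing: deviations of same-numbered iHep and hepatocyte arrays correlated at 0.06 to 0.10, so the numbers were not taken to pair samples. Alternatives covered scaling, probe choice, filter, floor, groups in the fit, a replicate block and arrays left out. Arrays that pair by rank correlation were averaged, TTF replicates 2 and 3 included.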

Additional observations from a re-analysis of the deposited data

Results flagged for a closer look

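Single arrays stood apart from the other 3 of their group in 12 of 388 groups of 4 arrays tested with Dixon's criterion, which chance meets in about 1 group in 20. In iHep, replicate 2 was the lowest for Tyrobp (-6.67), Foxa3 (-5.32) and Insig1 (-0.96) and the highest for Eif2s3x (-1.04), and replicate 1 was the lowest for Sftpd (-0.44). In hepatocytes, replicate 2 was the lowest for Lbp (-1.98) and for Creb3l3 (-1.40). Hepatocyte replicate 4 was the highest for Nr1h4 (2.57), Lss (-1.02) and Cdh1 (3.04), replicate 1 was the highest for Cyp39a1 (-0.06), and replicate 3 was the lowest for Ugt2b5 (-3.54).

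Features without a single gene symbol also carried differences. Of 11365 such features, 332 were higher and 280 lower in iHep than in hepatocytes by the same limma fit and thresholds, and they are not named here.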

How the results depend on the processing

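The counts of 1192 higher and 1432 lower genes depended most on how paired arrays were treated: averaged, an alternative chosen after seeing the data, they gave 36 and 64. With neither iHep array 1 nor 2 there were 1922 and 2218, and with neither hepatocyte array 1 nor 2, also chosen after seeing the data, 774 and 991. Leaving out 1 array gave 855 to 1300 higher and 984 to 1596 lower. The median shift gave 1832 and 1008. Each probe on its own gave 2076 and 2322 features of 33653, where the unit counted differs. A fit with the replicate number as a block gave 642 and 857; the check of pairing did not bear out the numbers, and a call lost under the block is not a weaker effect. The cause of the other moves was not tested. Of 156 called genes named, 149 kept their call without each array in turn, 155 under quantile, median and no shift, 147 with a common floor, 130 with the block and 38 with paired arrays averaged. Krt8, Krt19, Sox9 and Vim were not part of this check. No other named gene changed sign with its call in the alternatives run. Signal over background limits dim genes: 63.2% of features on iHep replicate 2 were above the limit.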
